A study of Mus musculus with 12 samples.

Results

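The genes described here are the SMAD transducers *Smad1*, *Smad2*, *Smad3*, *Smad4*, and *Smad5*, the inhibitors of differentiation *Id1*, *Id2*, and *Id3*, and the homeobox repressors *Tgif1* and *Tgif2*. They were taken by gene symbol from a table of 18376 genes, and all 10 were found. RNA was sequenced from bone marrow-derived macrophages (BMDMs), which were grown from bone marrow progenitors of adult wild type C57BL6/J mice with 50 ng/ml M-CSF, the growth factor that drives macrophage differentiation. Cells of the CTRL group received nothing further, Act cells received 50 ng/ml activin A, FST cells received 250 ng/ml FST288, and Act+FST cells received both, each for 6 days and with 3 libraries per group. Follistatin, of which FST288 is an isoform, captures activin A and blocks its access to the receptors. M-CSF was common to all 4 groups, and BMDMs are a cultured stand-in for tissue macrophages. Values are normalized counts, that is, reads per gene that the authors brought to a common scale between libraries. No value in the table has decimals.

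Activin A binds serine/threonine kinase receptors, which phosphorylate SMAD2 and SMAD3. These receptor-regulated SMADs join the common partner SMAD4 and enter the nucleus, where they control transcription. BMPs act through related receptors that phosphorylate SMAD1 and SMAD5, and *Id1*, *Id2*, and *Id3* are among the best known target genes of that branch. ID proteins lack a DNA-binding region and hold E proteins and other basic helix-loop-helix factors away from DNA. TGIF1 and TGIF2 are repressors that bind SMAD2 and SMAD3 and recruit histone deacetylases, and so limit the transcriptional output of the pathway. In macrophages, the activin and TGF-β branch is known to shape differentiation and inflammatory gene expression.

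*Smad3*, *Smad5*, and *Tgif1* were higher in Act than in CTRL, and the 250 bases before their RefSeq start sites are given here to show the sequence next to the genes that rose. The sequences are from RefSeq on build GRCm38.p6, which held 13 such windows for 7 of the 10 genes, the others being *Id1*, *Smad2*, and *Smad4*. Only windows without an annotated exon are printed. For *Smad3* this is chr9:63757995-63758244 on the minus strand, for *Smad5* chr13:56702760-56703009 on the plus strand, and for *Tgif1* chr17:70851735-70851984 on the minus strand, which lies inside the *Tgif1* gene between annotated exons. Capitals mark matches to CAGAC, the core of the SMAD3 and SMAD4 binding element, or to TGTCA, the core of the Tgif binding site, on either strand.
Smad3: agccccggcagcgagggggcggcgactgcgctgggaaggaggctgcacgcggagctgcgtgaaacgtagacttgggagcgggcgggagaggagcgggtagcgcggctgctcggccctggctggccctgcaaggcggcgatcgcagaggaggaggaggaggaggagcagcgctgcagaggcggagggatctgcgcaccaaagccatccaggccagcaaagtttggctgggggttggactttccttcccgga
Smad5: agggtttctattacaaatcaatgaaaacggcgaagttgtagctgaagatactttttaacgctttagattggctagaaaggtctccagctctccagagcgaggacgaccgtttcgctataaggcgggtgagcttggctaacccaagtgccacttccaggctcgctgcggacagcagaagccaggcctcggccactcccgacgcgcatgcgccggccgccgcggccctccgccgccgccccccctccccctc
Tgif1: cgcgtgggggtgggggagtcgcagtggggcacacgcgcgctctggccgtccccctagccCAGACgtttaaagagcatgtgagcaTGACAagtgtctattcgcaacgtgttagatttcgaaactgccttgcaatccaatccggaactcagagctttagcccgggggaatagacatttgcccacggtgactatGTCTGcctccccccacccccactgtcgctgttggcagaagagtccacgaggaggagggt
The *Tgif1* window held 2 matches to CAGAC and 1 to TGTCA, and no letters are capital in the other two windows. Of all 32851 promoter windows of the same length, 42.2% held CAGAC and 39.95% held TGTCA. The GC-rich SMAD motif GGCGCC was found in 9.59% of all windows and the palindrome GTCTAGAC in 0.167%, and neither was found in the printed windows. *Smad5* and *Tgif1* had further windows, which overlapped annotated exons and are not printed. For *Smad5*, the window from 56702802 held 1 GGCGCC and that from 56703418 held 1 CAGAC. For *Tgif1*, the window from 70851211 held no match and that from 70849791 held 1 CAGAC. Those from 70846778 and 70853533 held 2 and 1 matches to TGTCA, the latter also 1 to CAGAC. The windows of the other genes overlapped annotated exons too. The *Id3* window held 2 CAGAC, the *Id2* window held 1 GGCGCC, and those of *Smad1* and *Tgif2* held no match. Both strands were searched, no motif lies within another, and the 3 matches in the printed *Tgif1* window did not overlap. These matches describe letters in short windows and do not show binding.

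Total normalized counts were between 5643708 and 5955400 per library, of which the top 100 genes held 4.65% to 5.13%. The original depth cannot be read from scaled totals. The 8 macrophage markers, among them *Csf1r* and *Adgre1*, were all detected, with sums of 11172 to 12394 normalized counts over the 12 libraries and overlapping ranges in all 4 groups. Single markers moved apart within these sums. *Cd14* and *Mertk* were higher, and *Cd68* lower, in all Act libraries than in all CTRL libraries, while the other markers overlapped. All Act libraries lay above all CTRL libraries for 18% of all genes. Libraries with replicate number 1 stood apart from numbers 2 and 3 on the second principal component in every group. These libraries also held more RNA of the fibroblast markers, with sums over 5 genes of 55 (CTRL), 200 (Act), 90 (Act+FST), and 107 (FST) normalized counts, against 3 to 20 in the other 8 libraries. *Col1a1* and *Col1a2* made up most of the sums in replicate 1, and *Pdgfra* was at 0 in 10 of the 12 libraries. The progenitor genes *Mpo*, *Elane*, and *Kit* summed to between 35 and 87 in Act and between 104 and 287 in the other groups, a subset picked after the values were seen. Over the whole list of 6 neutrophil and progenitor markers, which includes *S100a8* and *S100a9*, the sums overlapped, with 333 to 486 in Act and 414 to 657 in CTRL. T and B cell markers summed to at most 25 in any library, and dendritic cell markers to 59 to 142 in CTRL and 109 to 164 in Act. Whether these cells had a part in the results below was not tested, and in bulk samples fewer cells of a type and less RNA per cell cannot be told apart. The labels leave unstated whether replicates were separate cultures or animals, so that p-values measure the spread between these libraries, which may be technical. Libraries with the same number deviated from their group means together, and values with the number as a block are given where they change a call.

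Levels of different genes were compared per kilobase of merged exons. In CTRL, *Smad4* was highest at 170 ± 11.6 normalized counts per kilobase (SD, n = 3), followed by *Tgif1* at 126 ± 2.96 and *Id2* at 114 ± 2.28. *Smad2* (85.1 ± 1.28) and *Smad3* (84.6 ± 4.08) stood next and overlapped each other, as did *Smad5* (67.7 ± 2.7) and *Smad1* (65.3 ± 2.03). *Id3* was much lower at 11.9 ± 3.41, and *Id1* (2.30 ± 1.32) and *Tgif2* (0.870 ± 0.301) overlapped at the bottom of the order. The median over 14309 genes (mean of at least 5, length known) was 61.9 per kilobase over the 12 libraries. On the same scale *Smad4* lay above 84.9% of these genes, *Smad1* above 51.5%, and *Id3* above 20.7%. In Act, *Smad3* rose past *Smad2* in this order, with 105 ± 5.55 against 92.0 ± 2.21 normalized counts per kilobase and no overlap between their libraries. The activin-type *Smad2* and *Smad3* made up 56.1% ± 0.739 of the summed level of *Smad1*, *Smad2*, *Smad3*, and *Smad5* in CTRL (SD, n = 3). The Act libraries had a share of 56.4% ± 1.57, the Act+FST libraries 56.3% ± 1.89, and the FST libraries 56.5% ± 0.370, so that each mean differed from CTRL by less than the SD in CTRL. The share depends on the length used, as *Smad1* stood above *Smad2* and *Smad3* per kilobase of the longest transcript. The CTRL means were then 108 (*Smad1*), 92.3 (*Smad2*), 92.1 (*Smad3*), and 76.3 (*Smad5*). The top of the order depends on the length as well. Per kilobase of the longest transcript, *Tgif1* came before *Smad4* in every group, with 226 against 186 in CTRL.

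**Figure D1:**
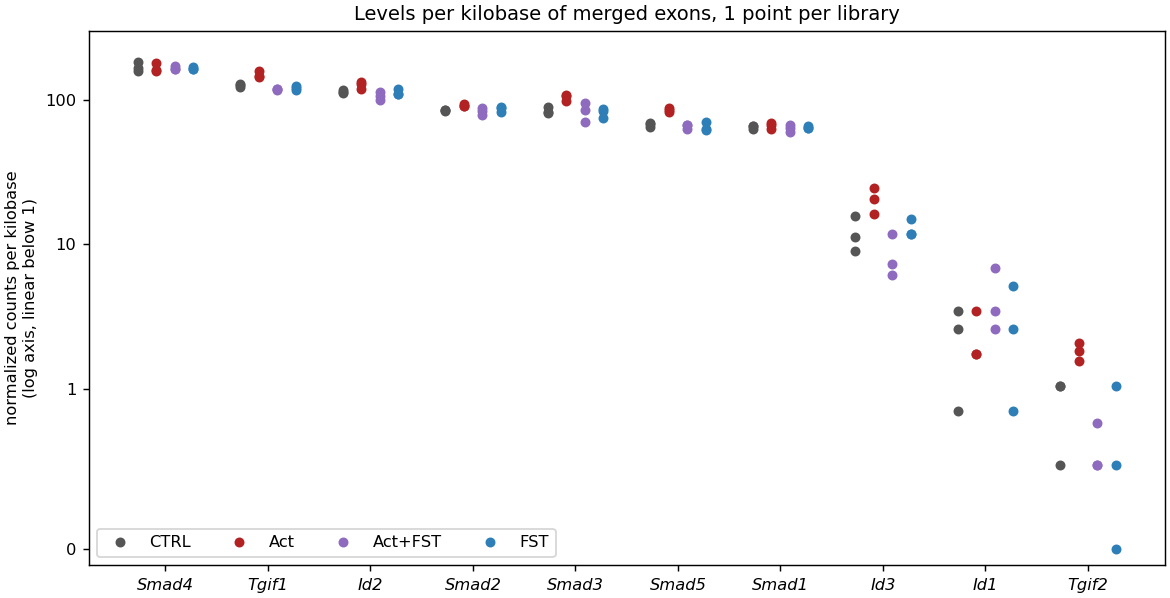
Levels of the 10 genes in normalized counts per kilobase of merged exons, on a log axis that is linear below 1, with 1 point per library and colors for the 4 groups, ordered by the mean in CTRL. *Smad4* stands highest on this scale, and *Id3*, *Id1*, and *Tgif2* stand far below the other genes in every group.

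Among the transducers of the activin branch, *Smad3* (ENSMUSG00000032402, chromosome 9 from 63646767 to 63757994 of GRCm38) was higher in Act. CTRL replicates 1, 2, and 3 held 454, 458, and 495 normalized counts, and the Act replicates 594, 600, and 544. Act+FST replicates held 531, 470, and 388, and FST replicates 484, 464, and 416. All Act libraries lay above all other libraries, and the Act+FST libraries spread most widely. The log2 fold change of *Smad3* in Act versus CTRL was 0.30 (standard error 0.10), a rise of 23.5%, with an adjusted p of 0.0418 in limma (0.0068 with the replicate block). This call was lost when any of the 6 libraries was left out, with adjusted p between 0.0526 and 0.124 in limma and log2 fold changes between 0.28 and 0.35, and also with quantile normalization (0.28, limma adjusted p = 0.0577). Without replicate 1 of every group (an alternative added after seeing the data), it was 0.26 (limma adjusted p = 0.104). Against Act+FST the log2 fold change was 0.33 (limma adjusted p = 0.0260), and it lost the threshold without Act replicate 1, Act replicate 2, or Act+FST replicate 3, with adjusted p of at most 0.0882 in limma, and with only these 2 groups in the model (0.0616). Without Act+FST replicate 3 this log2 fold change was 0.21. *Smad2* (ENSMUSG00000024563, on chromosome 18) lay closer to its CTRL level in Act. Its normalized counts were 754, 734, and 753 in the CTRL libraries and 795, 830, and 798 in the Act libraries. They were 777, 692, and 738 with both proteins (Act+FST) and 779, 727, and 785 with FST288 alone (FST). Act libraries were again above all others, but by a log2 difference of only 0.11 (standard error 0.05) from CTRL, which did not pass the threshold (limma adjusted p = 0.120, and 0.0537 with the block). The difference of *Smad2* between Act and Act+FST was 0.14 (limma adjusted p = 0.0610), and it passed with the block (adjusted p = 0.0215). It also passed in limma without Act+FST replicate 1 (adjusted p = 0.0213) and without replicate 1 of every group (adjusted p = 0.0417).

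Of the transducers of the BMP branch, *Smad5* was higher in Act and *Smad1* did not pass. *Smad5* (ENSMUSG00000021540, chromosome 13 from 56703010 to 56742377) was at 518, 480, and 510 normalized counts in CTRL. In Act it was at 615, 635, and 649. It had 498, 502, and 465 in Act+FST, and 525, 464, and 461 in FST. The lowest Act library was thus well above the highest library of the other groups. The log2 fold change of *Smad5* was 0.33 (standard error 0.06, limma adjusted p = 0.00121) in Act versus CTRL, the largest change called without the block in this comparison, while *Id3*, called only with the block or without CTRL replicate 1, had 0.77. In Act versus Act+FST it was 0.37 (limma adjusted p = 5.2e-04), and leaving out any 1 library kept both calls, with adjusted p of at most 0.0074 in limma. A small RNA gene, *Gm27301*, shares 1.35% of its exonic bases on the same strand. *Smad1* (ENSMUSG00000031681, chromosome 8 from 79338395 to 79399518) was at 415, 394, and 417 normalized counts in the CTRL libraries and at 421, 392, and 432 in the Act libraries. With FST288 it was at 401, 420, and 379 (Act+FST) and at 402, 401, and 417 (FST). The groups overlapped fully. The change of *Smad1* in Act versus CTRL was 1.49%, with a 95% confidence interval from −6.15% to 9.77% that leaves out a rise of the size seen for *Smad5* (25.9%). The difference between *Smad1* and *Smad5* itself was not tested.

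*Smad4* (ENSMUSG00000024515, on chromosome 18) encodes the common partner of both branches. Its CTRL libraries held 677, 620, and 593 normalized counts, and its Act libraries 675, 594, and 598. Act+FST libraries held 642, 608, and 613, and FST libraries 634, 613, and 613. Replicate 1 was highest in every group, and the groups overlapped. The change of *Smad4* in Act versus CTRL was −1.24% (95% confidence interval from −9.56% to 7.85%, limma adjusted p = 0.877).

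Of the Id genes, *Id3* (ENSMUSG00000007872, chromosome 4 from 136143497 to 136145755) showed the largest differences in size, at a low level. CTRL replicates 1, 2, and 3 held 28, 20, and 16 normalized counts, and the Act replicates 37, 29, and 44. Act+FST replicates held 21, 13, and 11, and FST replicates 27, 21, and 21. Every Act library was above every other library, though the lowest Act library exceeded the highest CTRL library by only 1 normalized count. In CTRL, Act+FST, and FST, replicate 1 was the highest, while in Act replicate 3 was (44, against 37 in replicate 1). Replicate 1 held more fibroblast marker RNA in all 4 groups, with the largest sum in Act (200). A link of *Id3* to this RNA was not tested. Between Act and CTRL, *Id3* differed by 0.77 on the log2 scale (standard error 0.28). This missed the threshold without the block (limma adjusted p = 0.0723) and passed with it (adjusted p = 0.0218). It also passed without CTRL replicate 1 (0.98, limma adjusted p = 0.0390), and adjusted p reached 0.241 in the other alternatives. In Act versus Act+FST *Id3* rose by 1.265 on the log2 scale (standard error 0.28, limma adjusted p = 0.00602), more than 2-fold, and this call stood when any 1 library was left out (adjusted p of at most 0.0310 in limma). Without replicate 1 of every group, the log2 fold changes were 0.96 against CTRL and 1.5 against Act+FST (limma adjusted p = 0.0567 and 0.00809). Act+FST minus CTRL was below 0 for *Id3* in all 3 pairs of the same number, with log2 differences of −0.40, −0.58, and −0.50, but this did not pass (limma adjusted p = 1, and 0.522 with the block).

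*Id2* (ENSMUSG00000020644, chromosome 12 from 25093799 to 25097140) was the most abundant Id gene. CTRL libraries held 285, 274, and 278 normalized counts, and Act libraries 325, 291, and 313. Act+FST libraries held 279, 244, and 260, and FST libraries 291, 269, and 269. Act was above CTRL without overlap, and FST replicate 1 reached the lowest Act library. From CTRL to Act, *Id2* differed by 0.15 on the log2 scale (standard error 0.06), which among the alternatives passed only with the replicate block (limma adjusted p = 0.122, and 0.0302 with the block). In Act versus Act+FST it was 0.25 (standard error 0.06, limma adjusted p = 0.0141). That call was lost without Act replicate 1 or without Act+FST replicate 2 (limma adjusted p = 0.0623 and 0.0578) and with only these 2 groups in the model (0.0504). *Id1* (ENSMUSG00000042745, chromosome 2 from 152736251 to 152737410) is the member of the family most often used as a readout of BMP signaling. It was near the limit of detection, at 4, 1, and 3 normalized counts in the CTRL libraries and 2, 2, and 4 in the Act libraries. The Act+FST libraries had 3, 8, and 4, and the FST libraries 6, 1, and 3. All groups overlapped, and *Id1* was not tested because its mean was under 5. Without that minimum it differed by 0.06 on the log2 scale between Act and CTRL, with a 95% confidence interval from −1.09 to 1.21, so that a 2-fold change in either direction was not detectable.

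*Tgif1* (ENSMUSG00000047407, chromosome 17 from 70844205 to 70853546), whose window holds the capitals printed above, was higher in Act than in CTRL in 3 of 3 pairs. CTRL libraries held 691, 717, and 722 normalized counts, and Act libraries 832, 817, and 891. Act+FST libraries held 661, 673, and 671, and FST libraries 680, 708, and 664. The 3 Act libraries stood clear of the other 9, and the Act+FST libraries lay below all CTRL libraries. The log2 fold change of *Tgif1* was 0.25 in Act versus CTRL (standard error 0.04, limma adjusted p = 0.00107) and 0.34 in Act versus Act+FST (standard error 0.04, limma adjusted p = 1.26e-04). Leaving out any 1 library kept both calls, with adjusted p of at most 0.00579 in limma. The difference of Act+FST from CTRL was −5.85% (95% confidence interval from −11.6% to 0.309%) and did not pass (limma adjusted p = 1, and 0.495 with the block). *Tgif2* (ENSMUSG00000062175, chromosome 2 from 156840007 to 156855570) was barely detected, at 4, 4, and 2 normalized counts in the CTRL libraries and 7, 8, and 6 in the Act libraries. The Act+FST libraries had 3, 2, and 2, and the FST libraries 4, 0, and 2. The Act libraries were the highest here too, but *Tgif2* lay under the minimum mean of 5 and was not among the genes tested. Without that minimum, it differed by 0.92 on the log2 scale from CTRL to Act (limma adjusted p = 0.287) and by 1.27 from Act+FST to Act (limma adjusted p = 0.123). *5430405H02Rik* on the opposite strand covers 56.7% of the exonic bases of *Tgif2*, so that its count depends on the strand setting, which is not given in the sources used here.

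**Figure D2:**
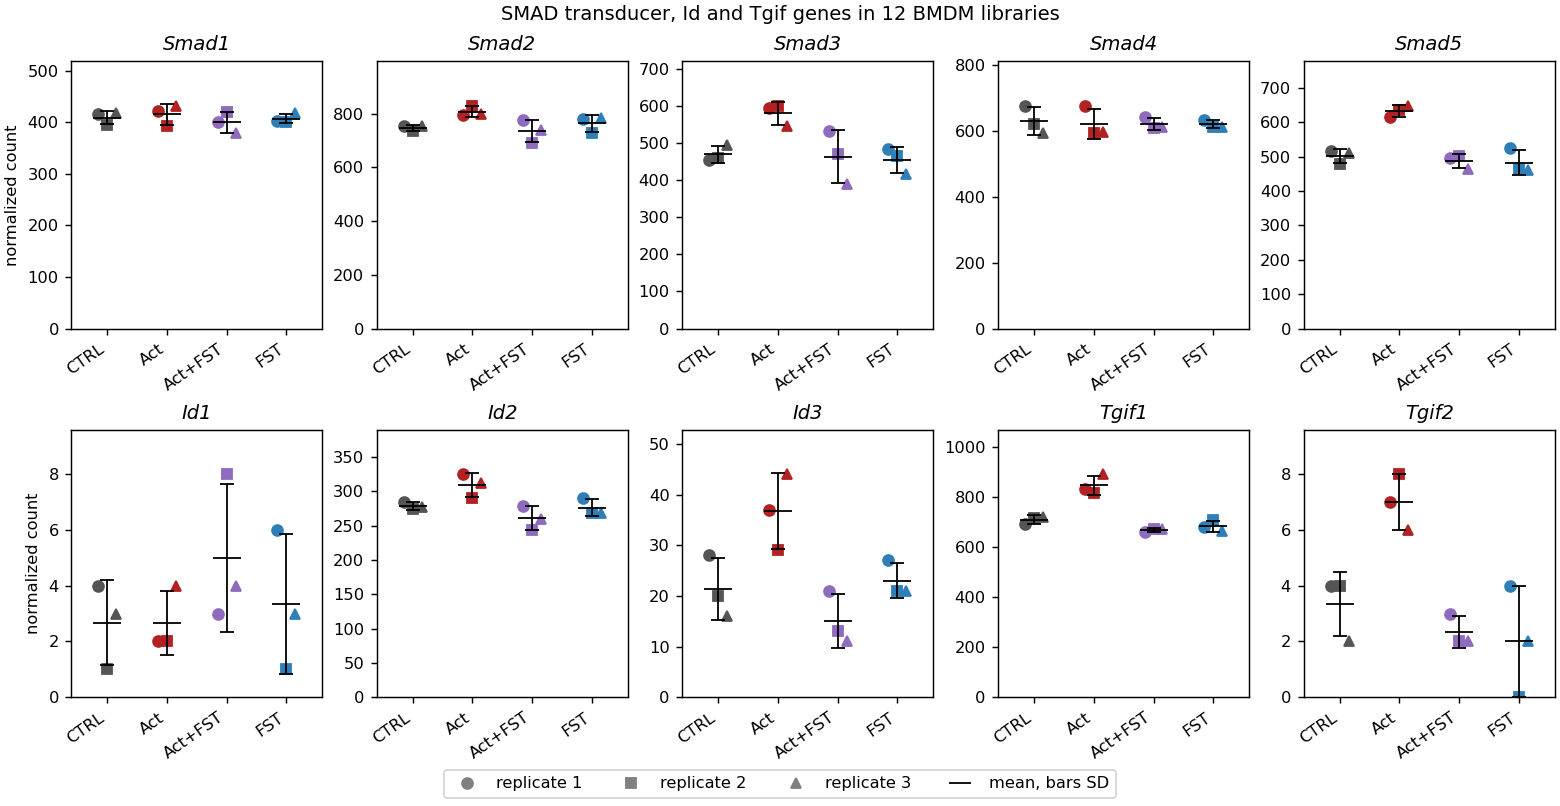
Normalized counts of the 10 genes in every library, with symbols for replicate numbers 1 to 3 and black bars for the mean and SD of each group of 3, on axes that start at 0. The Act libraries of *Smad2*, *Smad3*, *Smad5*, *Id3*, *Tgif1*, and *Tgif2* stand above the libraries of the other groups, while those of *Smad1* and *Smad4* lie among them.

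Counted over the genes, 8 of the 10 passed the minimum mean of 5 and were tested. The 10 genes were chosen with earlier results of these data known, so that these counts are descriptive only. In Act versus CTRL, 3 of the 8 were called higher (*Smad3*, *Smad5*, *Tgif1*), 0 lower, and 5 did not pass, where 10.3% of all 14318 genes tested were called higher and 20.2% were called in either direction. With the block, 5 of the 8 were higher (with *Id2* and *Id3*), against 16.3% of all genes. The count was 2 or 3 when 1 library was left out, and 2 with quantile normalization or without replicate 1 of every group. In 6 of the 8, all Act libraries were above all CTRL libraries, which held for 18% of all genes. The median log2 fold change of the 8 genes was 0.20, against 0.004 over all genes tested, and 0 of the 8 were called with a 2-fold change (5.66% of all genes). In Act versus Act+FST, which shares the Act libraries with the first comparison, 5 of the 8 were higher (*Smad3*, *Smad5*, *Id2*, *Id3*, *Tgif1*), against 11.1% of all genes, and 6 with the block, against 17.1%. In 6 of the 8, all Act libraries were above all Act+FST libraries (17.4% of all genes). The count was 3 with only these 2 groups in the model or without Act replicate 1. *Id3* alone among the 8 genes was called with a 2-fold change there (5.83% of all genes).

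No difference was detected with FST288 alone. In FST versus CTRL, 0 of the 8 genes passed in limma with or without the block, 0 had an unadjusted p under 0.05 (2.09% of all genes), and 0% of all genes were called. Log2 fold changes ranged from −0.06 for *Smad5* to 0.13 for *Id3*. For *Smad5* the change was −3.96% (95% confidence interval from −11.8% to 4.53%), and for *Id3* the interval from −28.1% to 66.4% was too wide to tell. Adding FST288 to activin A left 0 of the 8 genes apart from CTRL in limma, with or without the block. Again 0 had an unadjusted p under 0.05 (4.57% of all genes), and 0% of all genes were called (0.559% with the block). *Tgif1*, which lay below CTRL in all libraries, was the only one of the 8 without overlap, where 6.68% of all genes did not overlap. For *Smad3* the interval was from −15.2% to 13.2%, and for *Smad5* from −10.7% to 5.74%, so that a rise as large as in Act (23.5% and 25.9%) was outside both intervals.

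**Figure D3:**
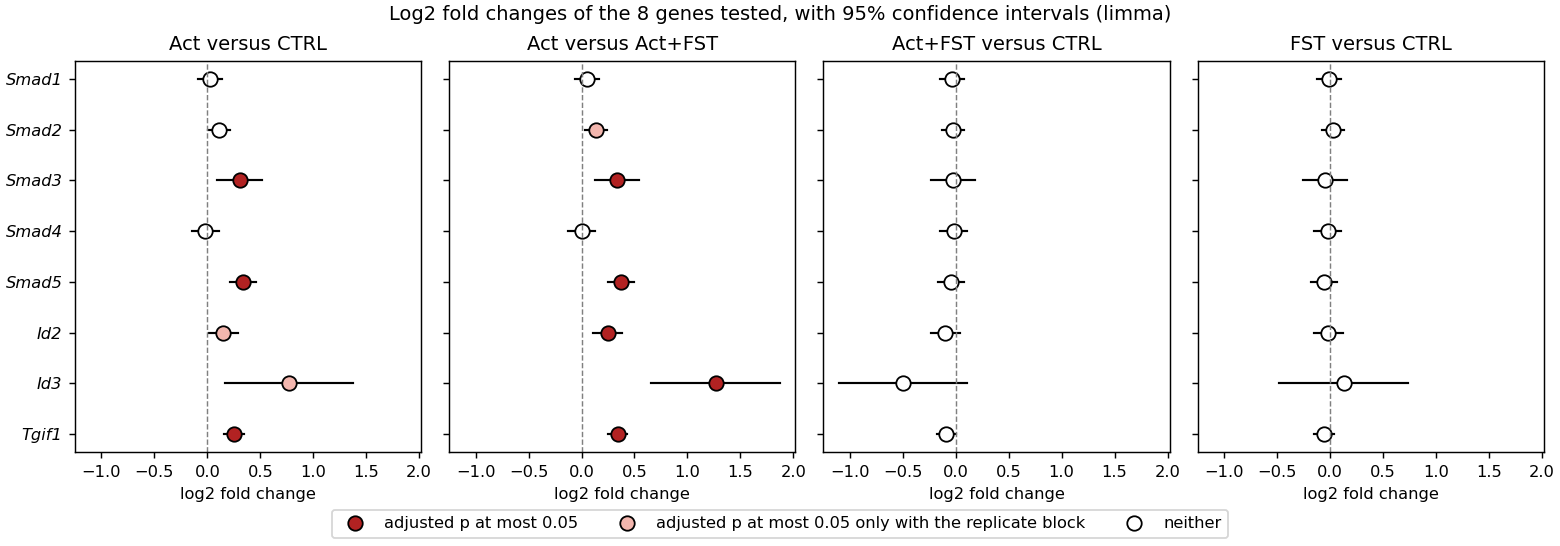
Log2 fold changes with 95% confidence intervals from limma for the 8 genes tested, in 4 comparisons of groups of 3 libraries. Filled points passed an adjusted p of at most 0.05, pale points only with the replicate number as a block, and open points in neither model, and filled points occur only in the 2 panels that compare Act with CTRL or with Act+FST.

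Whether activin A acted differently with FST288 present was tested as the difference between the effect of activin A without it (Act minus CTRL) and with it (Act+FST minus FST). This difference passed for *Tgif1* (0.29 on the log2 scale, standard error 0.06, limma adjusted p = 0.0132) and for *Smad5* (0.32, standard error 0.08, limma adjusted p = 0.0337), that is, for 2 of 8 genes against 3.99% of all genes called higher. With the block it also passed for *Id2* and *Id3*, 4 of 8 genes against 9.36%. For *Smad3* it was 0.29 (standard error 0.14) and did not pass (limma adjusted p = 0.269, and 0.0854 with the block). Without Act+FST replicate 3 this difference was 0.17. Act minus CTRL was above 0 and Act+FST minus FST below 0 in every pair of the same number for 3 of the 8 genes (*Smad2*, *Id2*, *Id3*), against 3.57% of all genes. With quantile normalization, *Tgif1* missed the threshold (0.24, limma adjusted p = 0.0534) and *Id3* passed it (1.46, limma adjusted p = 0.0481). Without replicate 1 of every group, *Tgif1* (0.27) and *Smad5* (0.31) missed the threshold (limma adjusted p = 0.0822 and 0.0572) and *Id3* reached it (1.72, limma adjusted p = 0.049995). The call for *Smad5* was also lost in 6 of the 12 models that left out 1 library (adjusted p up to 0.0842 in limma), namely those without Act replicates 2 or 3, CTRL replicates 2 or 3, Act+FST replicate 3, or FST replicate 1.

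Other genes of the pathway place these changes beside those of its receptors, inhibitors, and partners. The lists here and in the next paragraph were chosen with earlier results of these data known, so that their counts are descriptive only. Over all genes tested in Act versus CTRL, 10.3% were called higher and 20.2% in either direction, and the median log2 fold change was 0.004. With the block, 16.3% of all genes were called higher. Of the inhibitors of SMAD signaling, 9 of 9 were called higher in Act versus CTRL, with a median log2 fold change of 1.22. The membrane protein gene *Pmepa1*, which holds SMAD2 and SMAD3 from their receptors, rose by 5.35, the inhibitory SMAD genes *Smad6* and *Smad7* by 2.75 and 1.77, and the corepressor *Skil* by 1.26 (limma adjusted p of at most 1.8e-04). *Smad6* went from 13, 13, and 8 normalized counts in the CTRL libraries to 63, 78, and 106 in the Act libraries. Among 11 receptor genes tested, 2 were higher, 2 lower, and 7 did not pass, with a median of 0.05. With the block, 3 were higher, the third being *Acvrl1* (0.17, adjusted p = 0.0231 in limma), named here after its value was seen. *Tgfbr1*, a type I receptor of TGF-β, rose by 0.87 and the type I receptor *Acvr1* by 0.45, while the coreceptors *Tgfbr3* and *Eng* fell by 1.155 and 0.24 (limma adjusted p of at most 0.00696). Of 10 genes for SMAD adaptors, a SMAD phosphatase, nuclear export, and ubiquitin enzymes, 0 were higher and 1 was lower (*Zfyve16*, −0.34, limma adjusted p = 0.00499), with a median of 0.06. With the block, 2 of them were higher. Of 8 coactivators and Tgif partners, the corepressor *Ctbp2* was higher (0.18, limma adjusted p = 0.0214) and the coactivator partner *Cited2* was lower (−0.20, limma adjusted p = 0.0113), with a median of 0.08, and 3 were higher with the block. Of the 3 E protein genes, whose products ID proteins bind, *Tcf3* was higher (0.14, limma adjusted p = 0.0324), and the median was 0.03.

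Among other genes induced through SMAD2 and SMAD3 in various cells, 4 of 7 tested were higher and 2 lower, with a median of 0.21. Of all genes tested, 10.3% were higher and 20.2% were called in either direction. *Spsb1* rose by 4.10 and the basic helix-loop-helix repressor *Bhlhe40* by 0.79, while the cell cycle inhibitors *Cdkn2b* and *Cdkn1a* fell by 1.56 and 0.34 (limma adjusted p of at most 0.0268). *Cdkn2b* was low, with 38, 21, and 22 normalized counts in CTRL, 7, 7, and 11 in Act, and 35, 14, and 9 in Act+FST. In Act versus Act+FST it did not pass (−0.94, limma adjusted p = 0.168, and 0.0543 with the block), while *Spsb1*, *Bhlhe40*, and *Cdkn1a* did. Of 7 genes listed as induced through SMAD1 and SMAD5, 4 were not found by symbol in the data. Of the other 3 only *Hey1*, a Notch and BMP target, had a mean of at least 5. The CTRL libraries held 16, 22, and 15 normalized counts of *Hey1*, and the Act libraries 52, 45, and 45. The Act+FST libraries held 15, 15, and 20, and the FST libraries 14, 11, and 12. Its log2 fold change from CTRL to Act was 1.39 (limma adjusted p = 6.0e-04). *Smad9* and *Id4* were not found by symbol either. With both proteins, 0 genes of these lists were apart from CTRL in limma, with or without the block, and the median of the inhibitors was −0.03. Of all genes tested, 0% were called there (0.559% with the block).

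**Figure D4:**
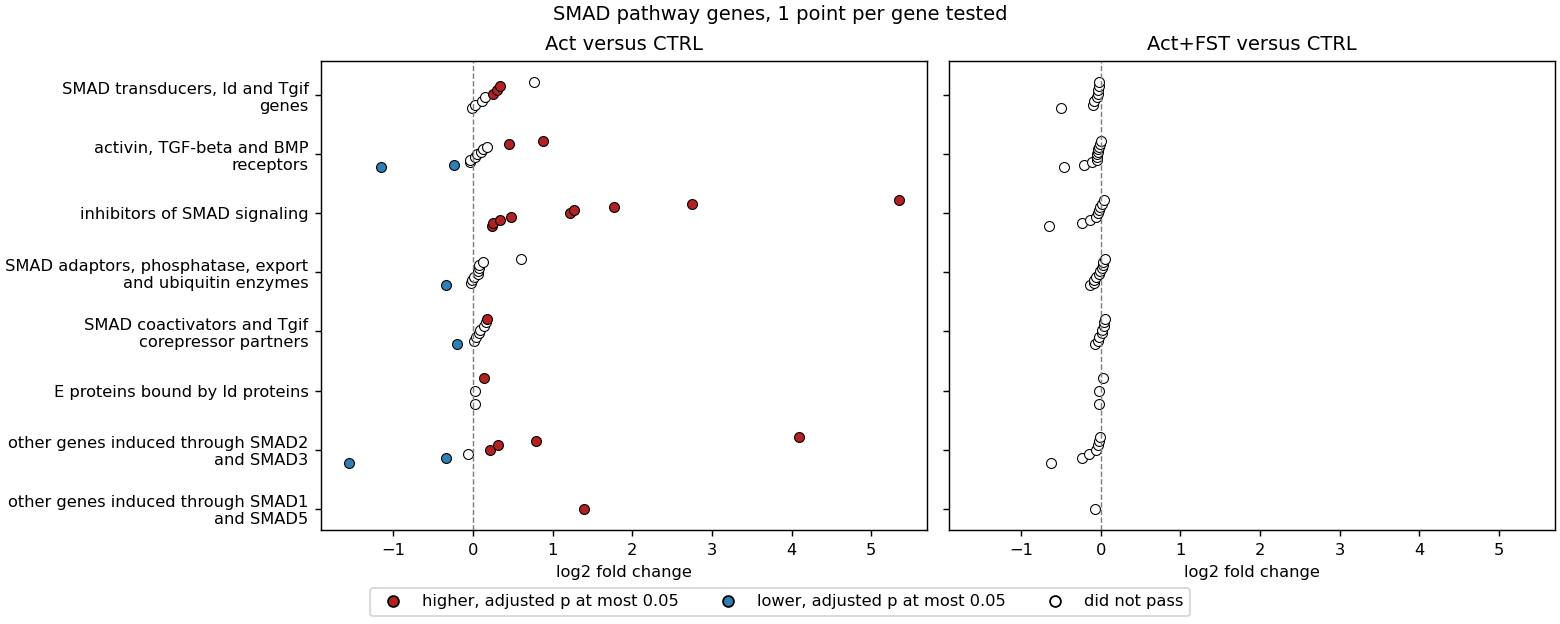
Log2 fold changes of the 8 genes tested and of 7 lists of SMAD pathway genes, with 1 point per gene tested, for Act against CTRL and for Act+FST against CTRL. The inhibitors reach 5.35 in Act versus CTRL, the SMAD transducer, Id and Tgif genes stay under 1, and every point is open in Act+FST versus CTRL.

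The genes with the most similar pattern to the called genes were sought among 10633 genes with a mean of at least 50, by the mean absolute distance between log2 values that were centered and scaled over the 12 libraries. The nearest to *Smad5* were *Cebpz* (0.145), *Dennd4a* (0.159), and *Sipa1l2* (0.166). The nearest to *Tgif1* were *Rtcb* (0.136), *Adck5* (0.161), and *Bach2os* (0.174), and the nearest to *Smad3* were *Tns4* (0.226), *Fzd1* (0.233), and *D030028A08Rik* (0.257).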

How the data were processed

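RNA of 12 BMDM libraries was sequenced as single-end reads from libraries of a strand-preserving kit. Per the labels and the methods of the study, the authors trimmed reads with Trimmomatic 0.39, aligned them to mm10 with STAR 2.7.9a, and counted exonic reads per gene with featureCounts 2.0.2. Only reads with a single position and a single gene entered the table. The deposited values form a signal at or above 0, gene counts brought to a common scale between libraries and given without decimals. The study names DESeq2 1.30.0 for its test of differential expression, but the formula of the scaling is not given in the sources used here. Whole reads could not be recovered, and no count model was used.

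Groups and replicate numbers came from the sample labels. Tests used limma (version 3.58.1, R 4.3.3), with moderated variances that follow the mean, on log2(normalized count + 1), which understates changes of low genes. One model of 4 group means was fitted to 14318 genes whose mean was 5 or more. A gene was called when its adjusted p (Benjamini-Hochberg, over all these genes) did not exceed 0.05. The model without the block was also run on simulated data that held no effect of the replicate number. That run cannot show how the model does where libraries of the same number deviate together. Same-numbered libraries of different groups correlated in their deviations from group means (18 pairs, each between 0.157 and 0.481), so the number was also used as a block. Merged exon lengths and overlaps came from GENCODE M21 (GRCm38), in which all 10 genes had the coordinates of the deposited table. Named are all 10 genes, the up to 4 called genes of each pathway list with the largest change, and the 3 genes nearest in pattern to each called member. A gene of 1 pathway list is not reported here and was left out of its counts. The members and lists were chosen with earlier results of these data known. Alternatives were pseudocounts of 0.5 and 5, no minimum or a minimum mean of 50, quantile normalization, TMM factors, only the groups compared, the block, leaving out each library, and, added after seeing the data, leaving out number 1 of every group.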

Additional observations from a re-analysis of the deposited data

Results flagged for a closer look

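The effect of activin A without FST288 minus that with it passed its test for 2 of the 8 genes tested, against 3.99% of all genes called higher. It was 0.32 for *Smad5* (standard error 0.08, limma adjusted p = 0.0337) and 0.29 for *Tgif1* (standard error 0.06, limma adjusted p = 0.0132). Both calls were lost without replicate 1 of every group (limma adjusted p = 0.0572 and 0.0822). The call for *Smad5* was also lost in 6 of the 12 models that left out 1 library, and that for *Tgif1* with quantile normalization. For 3 more genes, which did not pass without the block, Act minus CTRL was above 0 and Act+FST minus FST below 0 in all 3 pairs of the same number, as for 3.57% of all genes. The difference was 0.17 for *Smad2* (limma adjusted p = 0.178, with the block 0.0695), 0.23 for *Id2* (limma adjusted p = 0.160, with the block 0.0320), and 1.39 for *Id3* (limma adjusted p = 0.0544, with the block 0.0102). For *Id3*, the log2 differences of Act minus CTRL were 0.39, 0.51, and 1.40 in numbers 1, 2, and 3, and those of Act+FST minus FST were −0.35, −0.65, and −0.87. For *Smad2*, Act+FST minus FST was only −0.0037 in number 1.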

How the results depend on the processing

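Of the log2 fold changes under an alternative, 564 kept their direction and their side of the threshold, 24 lost it, 13 gained it, and 34 changed sign. With the replicate number as a block, 5 genes were called in Act versus CTRL (3 without) and 4 in the difference of activin A effects (2 without), and no call was lost. With only the groups compared, 3 genes were called in Act versus Act+FST (5 with all groups). Leaving out 1 library gave 3 to 6 there, 2 or 3 in Act versus CTRL, and 1 to 3 in the difference of activin A effects. Leaving out replicate 1 of every group gave 2 in Act versus CTRL and 1 in the difference of activin A effects. The causes were not tested. Changes of sign were limited to differences near 0. For *Smad1* these were −0.013 in Act versus CTRL with quantile normalization and 0.013 in FST versus CTRL without replicate 1 of every group. For *Smad4* they were −0.029 (quantile), −0.00065 (TMM), and −0.035 (without replicate 1 of every group) in Act versus Act+FST, and without replicate 1 of every group 0.0098 in Act+FST versus CTRL and 0.016 in FST versus CTRL. When 1 library was left out, *Smad1* ranged from −0.0081 to 0.062 and *Smad4* from −0.078 to 0.035 in Act versus CTRL, and *Smad4* from −0.059 to 0.033 in Act versus Act+FST and from −0.080 to 0.033 in the difference. In Act+FST versus CTRL the ranges were −0.067 to 0.0065 for *Smad1*, −0.064 to 0.020 for *Smad2*, −0.13 to 0.092 for *Smad3*, and −0.061 to 0.034 for *Smad4*. In FST versus CTRL they were −0.033 to 0.0079 for *Smad1*, −0.093 to 0.016 for *Smad3*, −0.064 to 0.032 for *Smad4*, −0.052 to 0.0042 for *Id2*, and −0.050 to 0.34 for *Id3*. With the longest transcript in place of merged exons, levels in CTRL per kilobase were 226 for *Tgif1*, 186 for *Smad4*, 142 for *Id2*, 108 for *Smad1*, 92.3 for *Smad2*, 92.1 for *Smad3*, 76.3 for *Smad5*, and 16.7 for *Id3*, so that *Tgif1* came first and *Smad1* moved ahead of *Smad2*. *Id1* and *Tgif2* were tested only without the minimum mean and did not pass.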
